A study of Mus musculus with 4 samples.

Results

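The troponin genes code for the 3 subunits of the calcium switch of striated muscle. The set comprised the slow, cardiac and fast genes of troponin T (Tnnt1, Tnnt2 and Tnnt3), of troponin I (Tnni1, Tnni3 and Tnni2) and of troponin C (Tnnc1, shared by slow and cardiac muscle, and Tnnc2 for fast muscle). The 8 genes were chosen by name from the 54446 rows of the deposited table, and each had 1 row. Their transcript levels were compared between 2 samples given siRNA to LncMyoD, a transcript that codes for no protein and takes its name from the adjacent gene Myod1, and 2 samples given control siRNA. All 4 held satellite cells, which renew skeletal muscle, taken from the hindlimb of C57BL/6 mice, grown in F10 with 10% HS and P/S, and harvested 48 h after the siRNA. In the control samples, too, the treatment text gives LncMyoD as the siRNA target, so the grouping rests on titles, descriptions and treatment tags. The target's own level was not analysed here. No label gives the age or sex of the mice or says that replicates came from separate animals or cultures. The p-values therefore speak only of how far these samples lie apart, which may be technical.

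In a sarcomere, troponin sits on the thin filament with actin and tropomyosin. Troponin C binds calcium, troponin I holds actin away from myosin until calcium arrives, and troponin T ties the complex to tropomyosin. Each fibre type of adult muscle uses its own set of these genes, while developing and regenerating skeletal muscle also uses the cardiac troponin T gene Tnnt2.

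The troponin transcripts of these samples were a mixture of slow, cardiac and fast forms. None of the 7 troponin genes that could be tested passed the threshold in knockdown against control cells. Among these 7 the largest estimates were for Tnnt2, at 0.784 times its control mean, and for Tnnc1, at 0.812 times. For each of the 7 the knockdown libraries lay further apart than the controls did, with knockdown replicate 2 the lowest of the 4 libraries for Tnnt2, Tnnt3, Tnni1 and Tnnc1.

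Myod1 codes for a factor that binds the E-box, the bases CANNTG, and the troponin promoter windows examined held 1 to 5 of them. RefSeq on GRCm38.p6 gave windows of 300 bases, from 250 before to 50 after a transcription start, for 6 of the 8 genes, Tnni2 and Tnnt3 apart. Windows are shown for genes that stand out by direction or level in the comparison below, in which no troponin gene passed the threshold. The windows of Tnni1 and Tnnc2 are not shown. Both knockdown libraries lay below both controls for Tnnt2 (chr1:135836084-135836383, plus strand, the more upstream of 2 windows) and Tnnc1 (chr14:31208062-31208361, plus strand), and above both for Tnnt1 (chr7:4515926-4516225, minus strand). Tnni3 (chr7:4522479-4522778, minus strand) was close to undetected. Capitals mark E-boxes, whose pattern CANNTG is matched on both strands at once, although of the marked sites only CAGCTG reads the same on both.
Tnnt2: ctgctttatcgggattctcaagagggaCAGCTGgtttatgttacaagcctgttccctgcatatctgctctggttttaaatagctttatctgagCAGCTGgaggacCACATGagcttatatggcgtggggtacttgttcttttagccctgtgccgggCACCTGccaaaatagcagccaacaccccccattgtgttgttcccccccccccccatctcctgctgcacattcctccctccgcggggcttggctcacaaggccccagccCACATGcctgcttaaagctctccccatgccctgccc
Tnnc1: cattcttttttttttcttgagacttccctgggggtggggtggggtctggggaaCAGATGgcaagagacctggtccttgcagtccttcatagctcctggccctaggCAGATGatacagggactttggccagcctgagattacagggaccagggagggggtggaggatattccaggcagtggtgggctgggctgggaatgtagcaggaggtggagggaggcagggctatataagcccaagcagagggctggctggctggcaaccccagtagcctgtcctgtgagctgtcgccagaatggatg
Tnnt1: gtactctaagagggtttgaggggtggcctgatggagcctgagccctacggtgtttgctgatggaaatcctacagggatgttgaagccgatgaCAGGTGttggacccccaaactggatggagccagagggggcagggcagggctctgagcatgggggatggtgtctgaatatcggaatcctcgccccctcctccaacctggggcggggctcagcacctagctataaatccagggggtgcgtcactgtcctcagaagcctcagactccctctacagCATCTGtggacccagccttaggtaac
Tnni3: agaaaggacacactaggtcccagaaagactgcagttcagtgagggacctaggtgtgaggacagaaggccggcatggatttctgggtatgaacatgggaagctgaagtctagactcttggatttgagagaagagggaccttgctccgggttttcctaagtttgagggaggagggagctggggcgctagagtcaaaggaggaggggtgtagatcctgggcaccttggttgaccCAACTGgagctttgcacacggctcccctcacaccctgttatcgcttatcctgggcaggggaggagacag

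The upstream Tnnt2 window held 5 E-boxes, a number reached by 2.1% of the 32851 windows of the same length in the table. Of these 5, 2 were CAGCTG, and 1.90% of windows hold at least 2 copies of that form. The other Tnnt2 window held 2 E-boxes, with 0 CAGCTG and 0 CATTCC. Tnnc1 and Tnnt1 held 2 E-boxes each, Tnnc2 held 2, and Tnni3 held 1. The more upstream of 2 overlapping Tnni1 windows held 4, a number reached by 6.49% of windows, and the other held 2. At least 1 E-box occurs in 72.3% of all windows and at least 2 in 39.6%, so most of these numbers are common. The MCAT element CATTCC, searched on both strands and known from the chicken cardiac troponin T promoter as a site of TEAD factors, occurred once in the upstream Tnnt2 window and once in the Tnnc1 window, against 14.7% of all windows with at least 1. The letters TATAAA occurred once in the Tnnt1 window and in 13.6% of all windows. The MEF2 motif and the CArG box had 0 matches in the 8 windows of these genes, and 3.19% and 1.63% of all windows hold them. A match describes the letters of the window, and binding was not measured.

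FPKM counts fragments per kilobase of transcript, scaled by those mapped in the library, so levels of different genes can be set side by side. In mean level over the 4 libraries the order was Tnnc1, Tnnt3, Tnnt2, Tnni1, Tnnt1, Tnni2, Tnnc2 and Tnni3. Tnnc1, at 148 to 225 FPKM, lay above all others in range. Tnnt3 (84.1 to 138 FPKM), Tnnt2 (79.4 to 118 FPKM) and Tnni1 (79.6 to 119 FPKM) overlapped and cannot be ordered beyond their spread. Tnnt1 (64.9 to 73.7 FPKM), Tnni2 (30.1 to 33.0 FPKM) and Tnnc2 (17.5 to 28.7 FPKM) followed without overlap, and Tnni3 (0.268 to 0.646 FPKM) was lowest. The place of Tnnc2 is uncertain, since 74% of its exonic bases are also exonic in Ube2c on the opposite strand. Tnnc1 ranked between 194 and 331 among all rows of a library, while Tnni3 ranked between 11905 and 14465. For a transcript of 1 kb, 1 FPKM rested on 36.7 to 41.1 reads of 150 nt, so that Tnnc1 rested on about 4371 to 6360 reads and Tnni3 on about 9.36 and 10.0 reads in knockdown and 23.1 and 17.8 in control, taking the longest coding transcript as the length. Reads copied by PCR are not independent molecules, and these numbers speak of counting only.

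**Figure D1:**
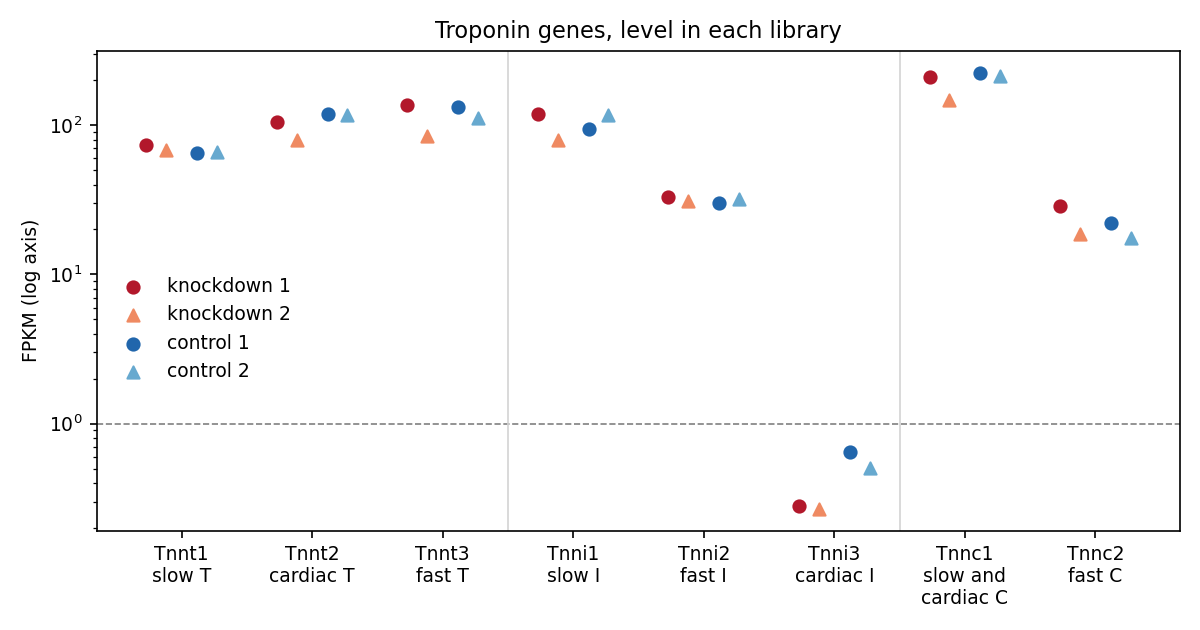
Level of each troponin gene in FPKM on a log axis; each point is 1 library, red for knockdown and blue for control, with circles for replicate 1 and triangles for replicate 2. Tnni3 lies below the dashed line at 1 FPKM, the mean level required for testing, while the other genes lie between 17.5 and 225 FPKM.

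The label of cultured satellite cells was checked against marker genes. Of 10 cardiomyocyte markers, 8 were at 0 in every library, among them Nkx2-5, Gata4, Tbx5, Nppa and Myl7, and Myh6 did not exceed 0.0241 FPKM. The remaining marker, the atrial and embryonic light chain Myl4, had 94.0 and 79.6 FPKM in knockdown and 105 and 98.2 FPKM in control. Tnnt2 was thus abundant in libraries in which the defining cardiac genes were at or near 0, and the cardiac troponin I gene Tnni3 was not. Myogenic markers were high as sums, though not each of them. The 6 markers of differentiating myocytes summed to 9024 and 6511 FPKM in knockdown and 10296 and 9836 FPKM in control. Acta1, at 3151 to 5326 FPKM, and Myog, at 2793 to 4196 FPKM, made up most of this sum, while Ckm had 12.7 to 16.4 FPKM. The 7 markers of satellite cells and myoblasts summed to 1005 and 1205 FPKM in knockdown and 1202 and 1191 FPKM in control. Most of the latter sum was Myod1, at 583 to 698 FPKM, and Des, at 221 to 287 FPKM. Myf5 had 6.11 to 8.20 FPKM. Pax7, a marker of satellite cells, had only 1.40 and 0.625 FPKM in knockdown and 1.02 and 0.859 FPKM in control. Smooth muscle and pericyte markers (7) summed to 36.7 to 40.6 FPKM in knockdown and 45.2 to 46.3 FPKM in control, and fibro-adipogenic markers (6) to 2.64 to 3.86 FPKM in knockdown and 4.70 to 5.05 FPKM in control. Nearly all of the smooth muscle and pericyte sum was Smtn, at 37.7 and 34.3 FPKM in knockdown and 42.3 and 41.1 FPKM in control. Of its other markers, Mcam reached the most, 2.22 FPKM, and Myh11 had at most 0.034 FPKM. Sums over 5 markers each reached at most 2.68 FPKM for endothelial cells, 1.09 for macrophages and 0.864 for Schwann cells. In whole-culture RNA, fewer cells of a type and less RNA per cell cannot be told apart.

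The comparison asked whether siRNA against LncMyoD changed the troponin transcripts. Of the 10900 genes that averaged 1 FPKM or more, limma called 6, or 0.0550%, at an adjusted p under 0.05. Of the 8 troponin genes, 7 were tested, and the count called was 0 in each direction. At an unadjusted p under 0.05 it was 1, Tnnt2, against 7.08% of all tested genes. Both knockdown libraries lay below both controls for 2 of the 7, Tnnt2 and Tnnc1, where 16.3% of tested genes did so, and above both controls for 1, Tnnt1, where 22.1% did so. A single gene more or less would carry either share across that of all genes. The median log2 fold change of the 7 was -0.10, with 4 negative, against 0.03 over all tested genes, of which 45.2% were negative. The median of the 7 was -0.39 without knockdown replicate 1 and 0.17 without knockdown replicate 2, and it was also positive, at 0.06, without control replicate 2.

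Troponin T anchors the complex to tropomyosin. The cardiac gene Tnnt2 (chromosome 1, 135836354 to 135852260, plus strand, GRCm38) had 105 and 79.4 FPKM in knockdown replicates 1 and 2, and 118 and 117 FPKM in control replicates 1 and 2. Both knockdown libraries were below both controls, and replicate 2 lay much further below. The means were 92.3 ± 18.3 FPKM in knockdown and 118 ± 0.730 FPKM in control (SD, n = 2 each). On the log2(FPKM + 1) scale the fold change by limma was -0.36 ± 0.14 (SE), with a 95% interval of -0.71 to -0.0079 and an adjusted p of 0.692. Leaving out knockdown replicate 1 gave -0.56 with a limma adjusted p of 0.180, and leaving out knockdown replicate 2 gave -0.16 with one of 0.505. In each leave-out fit the lone library is assumed to vary like the other group.

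The fast gene Tnnt3 (chromosome 7, 142498836 to 142516009, plus strand) had 138 and 84.1 FPKM in knockdown and 133 and 112 FPKM in control. Knockdown replicate 1 was the highest library and knockdown replicate 2 the lowest, so the groups overlapped. Its log2 fold change was -0.18 ± 0.23 (SE), with a limma adjusted p of 0.895 and a 95% interval of -0.74 to 0.38. Leaving out knockdown replicate 1 gave -0.53 and leaving out knockdown replicate 2 gave 0.17, so its sign rested on 1 library. Tnnt3 has 27 annotated transcripts, 23 of them coding, and these share 1 row.

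The slow gene Tnnt1 (minus strand of chromosome 7, 4504570 to 4516382) had 73.7 and 68.4 FPKM in knockdown and 64.9 and 66.2 FPKM in control. Both knockdown libraries lay above both controls. The means of 71.1 ± 3.73 FPKM in knockdown and 65.5 ± 0.931 FPKM in control (SD, n = 2 each) gave a log2 fold change of 0.11 ± 0.099 (SE), with a limma adjusted p of 0.833. Its 95% interval, -0.13 to 0.36, was the narrowest of the 7. Tnnt1 was positive and Tnnt2 negative with each of the 4 libraries left out, from 0.06 to 0.17 for Tnnt1 and from -0.56 to -0.16 for Tnnt2. Groups that do not overlap cannot change sign when 1 library is left out, so only the ranges are informative.

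Troponin I is the inhibitory subunit. The slow gene Tnni1 (chromosome 1, 135779434 to 135810989, plus strand), the most abundant of the 3, had 119 and 79.6 FPKM in knockdown and 93.7 and 116 FPKM in control. The groups overlapped fully, with the highest and the lowest value both in knockdown. Its log2 fold change was -0.10 ± 0.21 (SE), with a limma adjusted p of 0.946 and a 95% interval of -0.61 to 0.41. Without knockdown replicate 2 it was 0.19, and without knockdown replicate 1 it was -0.39.

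The fast gene Tnni2 (chromosome 7, 142441808 to 142444410, plus strand) had 33.0 and 30.8 FPKM in knockdown and 30.1 and 31.9 FPKM in control. Its 4 values lay close together and the groups overlapped. The log2 fold change was 0.04 ± 0.11 (SE), with a limma adjusted p of 0.958 and a 95% interval of -0.24 to 0.32. The interval leaves room for a change of either sign up to its bounds.

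The cardiac gene Tnni3 (minus strand of chromosome 7, 4518305 to 4524229) had 0.280 and 0.268 FPKM in knockdown and 0.646 and 0.501 FPKM in control. Both knockdown libraries were below both controls, at the level of a few reads. The gene was below the filter and was not tested with it. With no filter its log2 fold change was -0.30, which the pseudocount of 1 FPKM compresses, with a limma adjusted p of 0.818. It shares 86 exonic bases, 4.17% of its own, with Dnaaf3, which lies on the same strand and had 0.437 and 1.04 FPKM in knockdown and 0.296 and 1.55 FPKM in control.

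Troponin C carries the calcium sites. The slow and cardiac gene Tnnc1 (chromosome 14, 31208312 to 31211729, plus strand), the most abundant troponin transcript, had 210.2 and 148 FPKM in knockdown and 225 and 215 FPKM in control. Both knockdown libraries were below both controls, replicate 1 narrowly and replicate 2 by far. The means were 179 ± 44.3 FPKM in knockdown and 220.4 ± 7.08 FPKM in control (SD, n = 2 each), a log2 fold change of -0.32 ± 0.17 (SE) with a limma adjusted p of 0.719 and a 95% interval of -0.73 to 0.09. Leaving out knockdown replicate 1 gave -0.57 with a limma adjusted p of 0.143, and leaving out knockdown replicate 2 gave -0.07 with one of 0.723. Tnnc1 overlaps Nisch on the opposite strand and shares 0 exonic bases with it.

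The fast gene Tnnc2 (minus strand of chromosome 2, 164777161 to 164779967) had 28.7 and 18.5 FPKM in knockdown and 22.1 and 17.5 FPKM in control. Knockdown replicate 1 was the highest library and knockdown replicate 2 lay between the controls. Its log2 fold change was 0.22 ± 0.23 (SE), with a limma adjusted p of 0.867 and a 95% interval of -0.34 to 0.78. It was -0.08 without knockdown replicate 1 and 0.53 without knockdown replicate 2. Of its exonic bases 74% are also exonic in Ube2c, a ubiquitin-conjugating enzyme gene of mitosis on the opposite strand, which had 39.6 and 45.8 FPKM in knockdown and 45.9 and 45.2 FPKM in control. No strand setting is given in the sources used here, so reads of these 2 genes may not be told apart, and the level of Tnnc2 is uncertain.

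**Figure D2:**
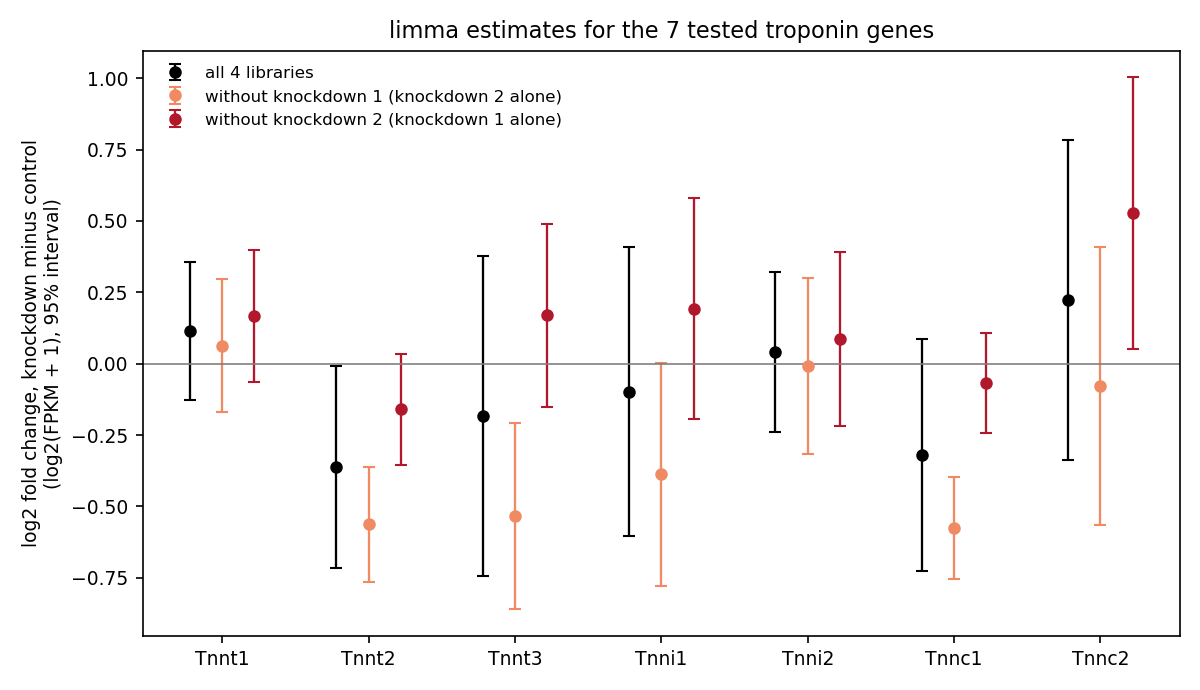
The limma log2 fold change of each tested troponin gene (knockdown minus control, log2(FPKM + 1)) with its 95% interval, from all 4 libraries in black and with either knockdown library left out in colour. Leaving out knockdown replicate 1 gives -0.53 for Tnnt3 and leaving out knockdown replicate 2 gives 0.17. Tnnt2 and Tnnc1, whose groups do not overlap, must stay negative in both.

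The spread between the knockdown replicates was wide for 5 of the 8 genes. Their gap on the log2(FPKM + 1) scale was 0.70 for Tnnt3, 0.61 for Tnnc2, 0.58 for Tnni1, 0.51 for Tnnc1 and 0.40 for Tnnt2. Among the 4527 genes averaging 10 FPKM or more the median gap was 0.17, and 96.8% of them had a smaller gap than Tnnt3, 94.9% than Tnnc2, 94.2% than Tnni1, 91.8% than Tnnc1 and 84.9% than Tnnt2. Tnnt1 and Tnni2, with gaps of 0.11 and 0.09, were below the median. Between the control replicates the median gap was 0.11, and Tnnt2 and Tnnc1 had 0.01 and 0.07. Tnni1, Tnnt3 and Tnnc2 differed between controls too, by 0.31, 0.24 and 0.32. In knockdown replicate 2, the library low in Tnnt2, Tnnt3, Tnni1 and Tnnc1, the differentiating myocyte markers also summed lowest, at 6511 FPKM, and their part in the troponin values was not tested.

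**Figure D3:**
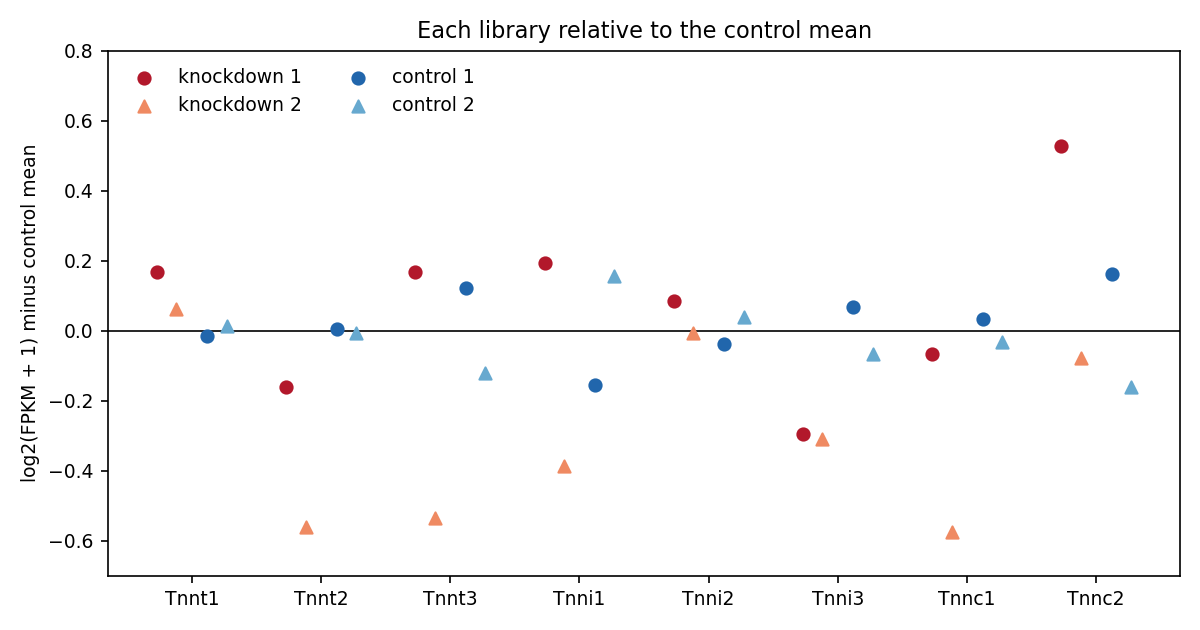
Each library's log2(FPKM + 1) minus the mean of both controls, for the 8 troponin genes, with knockdown in red and control in blue. Knockdown replicate 2 lies at -0.56 for Tnnt2, -0.53 for Tnnt3, -0.39 for Tnni1 and -0.57 for Tnnc1, while knockdown replicate 1 lies at -0.16, 0.17, 0.19 and -0.07.

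Summed over the 8 genes, troponin transcripts reached 708 and 509 FPKM in knockdown and 688 and 677 FPKM in control. They made up 0.223% and 0.158% of all FPKM in knockdown and 0.213% and 0.210% in control. The log2 difference of the sums was -0.19, with an exact two-sided permutation p of 1, where 2 against 2 samples cannot go below 0.33. Without knockdown replicate 2 the difference was 0.05. In each of the 4 libraries the troponin T genes summed highest, then troponin C and then troponin I. Troponin T summed to 316 and 232 FPKM in knockdown and 316 and 296 FPKM in control, troponin C to 239 and 166 FPKM in knockdown and 247 and 233 FPKM in control, and troponin I to 153 and 111 FPKM in knockdown and 124 and 149 FPKM in control. The groups overlapped for troponin T and troponin I, and also for troponin C, where knockdown replicate 1 lay between the controls.

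Within a subunit the shares add to a whole, so a gene's share also moves with the level of the other genes. The groups did not overlap in the shares of Tnnt1, Tnnt2 and Tnni3, nor in the balance of Tnnc1 and Tnnc2. Such separation is common: in level, 16.3% of all tested genes had both knockdown libraries below both controls and 22.1% above. The share of Tnni3 rests on only about 9.36 to 23.1 reads per library. Tnnt2 made up 33.3% and 34.2% of troponin T in knockdown and 37.4% and 39.6% in control. Tnnt1 made up 23.3% and 29.5% in knockdown and 20.5% and 22.4% in control, and Tnnt3 made up 43.5% and 36.3% in knockdown and 42.1% and 38.0% in control. The cardiac share of troponin T therefore differed by -4.77 points between knockdown and control and the slow share by 4.95 points, each in both libraries, while the fast share overlapped. The difference in the Tnnt1 share was 8.06 points without knockdown replicate 1 and 1.84 points without knockdown replicate 2, the library in which troponin T summed lowest and the FPKM of Tnnt1 was below that of knockdown replicate 1.

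Within troponin C, Tnnc1 made up 88.0% and 88.8% in knockdown and 91.1% and 92.5% in control, and Tnnc2 the remainder, on average 11.6% in knockdown and 8.21% in control. The difference was 3.38 points, with an SD of 0.610 points in knockdown and of 1.00 points in control. It rests on the level of Tnnc2, which is uncertain for its overlap with Ube2c. Within troponin I, Tnni1 made up 78.2% and 71.9% in knockdown and 75.3% and 78.2% in control, with overlap, and Tnni3 made up 0.183% and 0.242% in knockdown and 0.519% and 0.337% in control. All exact permutation p-values of the shares were at least 0.33, the smallest that the design allows, so these separations are descriptions. The 3 fast genes together made up 28.1% and 26.2% of all troponin FPKM in knockdown and 26.9% and 23.9% in control, with overlap.

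**Figure D4:**
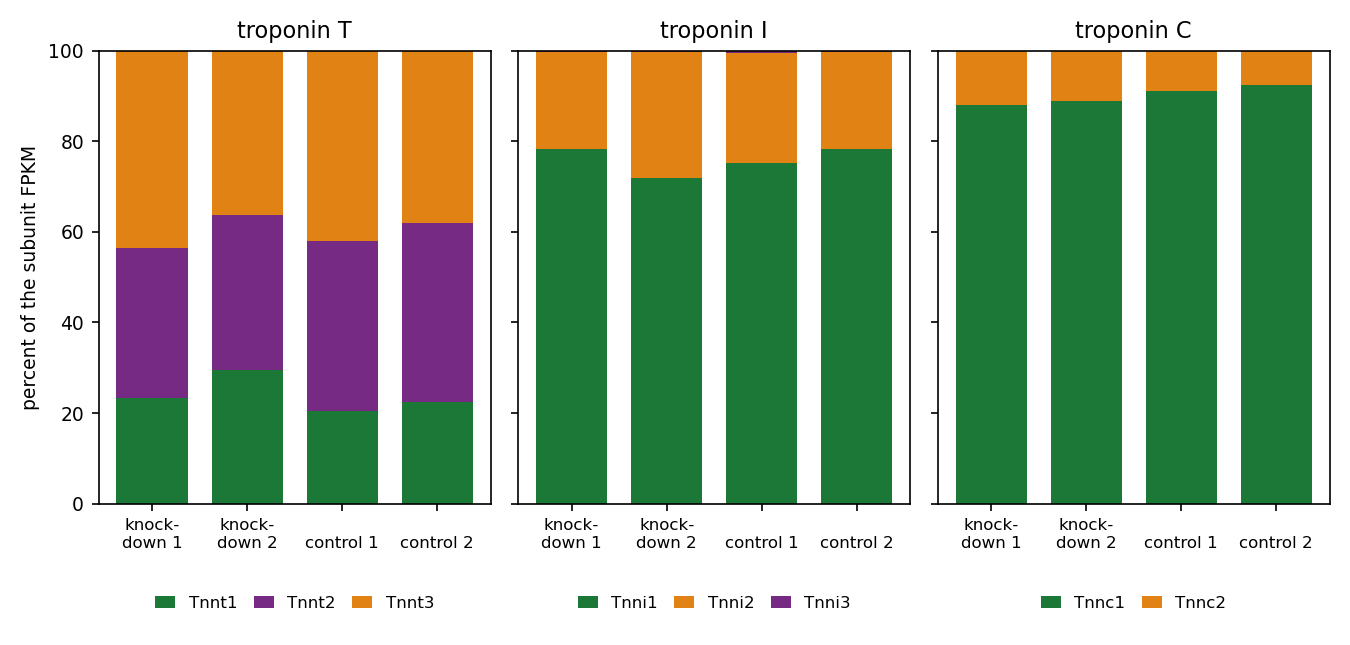
Percent of the FPKM of each subunit held by its slow (green), cardiac (purple) and fast (orange) gene in each library; Tnnc1 serves slow and cardiac muscle. Tnnt2 holds 33.3% and 34.2% of troponin T in knockdown and 37.4% and 39.6% in control, and Tnni3 is too low to be seen in most bars.

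The troponin I and T genes lie in pairs in the mouse genome. Tnni1 and Tnnt2 are 25364 bases apart on chromosome 1, Tnni2 and Tnnt3 are 54425 bases apart on chromosome 7, and Tnni3 and Tnnt1 are 1922 bases apart on chromosome 7, each pair on the same strand. The members of a pair did not always share a level. Tnnt1 averaged 68.3 FPKM over the 4 libraries beside 0.424 FPKM for Tnni3, and Tnnt3 averaged 117 FPKM beside 31.4 FPKM for Tnni2. Tnni1 and Tnnt2 did lie close together, at averages of 102 and 105 FPKM, and their ranges overlapped.

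Genes that work with troponin were taken as lists and described by counts and medians. Thin filament partners, the actins, tropomyosins, nebulins, leiomodins, tropomodulins and their regulators, had 16 of 21 members tested, with 12 negative and a median log2 fold change of -0.35, against 0.03 over all tested genes. At an unadjusted limma p under 0.05 there were 4, against 7.08% of all tested genes, the share beside which the counts of the lists that follow also stand. The 1 member that passed after adjustment was Tpm4, a tropomyosin of the cytoskeleton, which was lower at 460 and 441 FPKM in knockdown against 862 and 822 FPKM in control (log2 fold change -0.90, limma adjusted p 0.0350). Its log2 fold change was -0.87 without control replicate 1 and -0.93 without control replicate 2, with limma adjusted p-values of 0.340 and 0.358, and the list had 0 called with no filter, without the trend or with the replicate block. In 8 of the 16 both knockdown libraries lay below both controls, and in 1 above, against 16.3% and 22.1% of all tested genes. The list median was -0.11 without knockdown replicate 2, -0.19 without control replicate 1 and -0.38 without knockdown replicate 1.

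Slow fibre genes had 7 of 12 members tested, with 6 negative, a median of -0.15 and 0 called by limma, 1 of them at an unadjusted p under 0.05. Csrp3, a LIM protein of the Z-disc, had 20.6 and 14.8 FPKM in knockdown and 25.3 and 29.5 FPKM in control (limma adjusted p 0.625), and Myoz2, a calcineurin-binding Z-disc protein, had 2.34 and 1.15 FPKM in knockdown and 3.97 and 2.35 FPKM in control (limma adjusted p 0.718). The slow myosin Myh7 had 2.05 and 1.90 FPKM in knockdown and 2.02 and 2.67 FPKM in control, and the slow light chains Myl2 and Myl3 did not exceed 0.454 and 0.168 FPKM. Other members of the list were well expressed. The tropomyosin gene Tpm3 had 89.7 and 92.0 FPKM in knockdown and 84.4 and 86.2 FPKM in control, and Casq2, a calcium store protein, had 56.8 and 48.8 FPKM in knockdown and 58.9 and 58.4 FPKM in control. These 5 were picked with their values in view.

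Fast fibre genes had 8 of 14 members tested, with 7 negative, a median of -0.09 and 0 called by limma, 2 of them at an unadjusted p under 0.05. Leaving out knockdown replicate 1 gave a median of -0.28, and leaving out knockdown replicate 2 one of 0.05. Casq1, the calcium store protein of fast fibres, had 23.0 and 16.4 FPKM in knockdown and 11.9 and 8.17 FPKM in control (limma adjusted p 0.607). Atp2a1, the calcium pump of fast fibres, had 54.8 and 44.9 FPKM in knockdown and 64.9 and 62.7 FPKM in control (limma adjusted p 0.664). Embryonic and perinatal myosin genes had 3 of 4 members tested, with 3 negative, a median of -0.23 and 0 called by limma, 1 of them at an unadjusted p under 0.05. Myh8, the perinatal heavy chain, had 1.47 and 1.31 FPKM in knockdown and 3.02 and 3.11 FPKM in control (limma adjusted p 0.607), and Myl4 had a log2 fold change of -0.23 (limma adjusted p 0.717). That median was -0.38 without knockdown replicate 1 and -0.11 without knockdown replicate 2.

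Muscle transcription factors had 16 of 22 members tested, with 12 negative, a median of -0.16 and 0 called by limma, 1 of them at an unadjusted p under 0.05. Without knockdown replicate 2 the median was -0.08. Myog, which drives differentiation, had 3406 and 2793 FPKM in knockdown and 4196 and 3931 FPKM in control (limma adjusted p 0.607), and Mef2a had 8.26 and 7.28 FPKM in knockdown and 6.91 and 4.70 FPKM in control (limma adjusted p 0.747). Genes of troponin phosphorylation and calcium signalling had 15 of 16 members tested, with 7 negative, a median of 0.05 and 0 called by limma, 1 of them at an unadjusted p under 0.05. That median was 0.08 without knockdown replicate 2. The kinase gene Rock2 had 4.86 and 3.54 FPKM in knockdown and 2.68 and 3.25 FPKM in control (limma adjusted p 0.752).

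**Figure D5:**
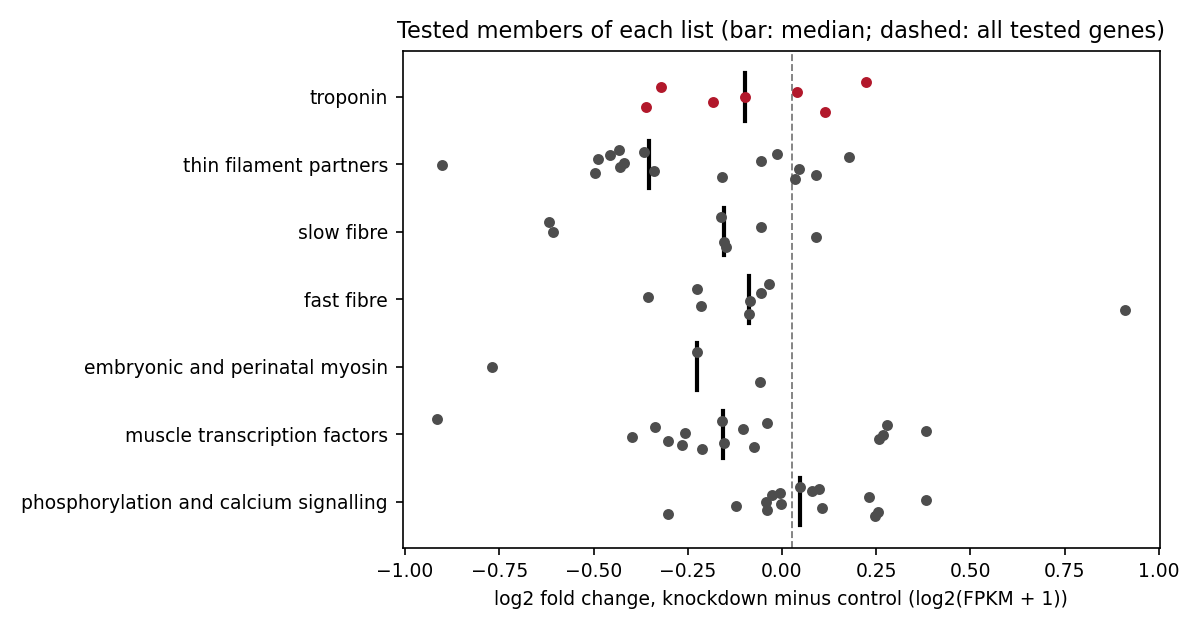
The limma log2 fold change (knockdown minus control, log2(FPKM + 1)) of each tested member of the troponin set and of the 6 related lists; bars are list medians and the dashed line is the median of all tested genes. The troponin median is -0.10 and that of the thin filament partners is -0.35.

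The genes most like the troponin sum were sought by the distance of their 4 log2 values, relative to the control mean, from those of the sum, which were 0.05 and -0.42 in knockdown and 0.01 and -0.01 in control. Among 4520 genes averaging 10 FPKM or more the 5 nearest were Ldb3, Olfm1, mt-Cytb, Cryab and Mylf-ps, at distances of 0.033 to 0.046. Ldb3, a Z-disc protein, had 15.3 and 10.5 FPKM in knockdown and 14.5 and 14.7 FPKM in control. Cryab, a small heat shock protein of muscle, had 124 and 89.5 FPKM in knockdown and 124 and 121 FPKM in control. In these genes, as in the sum, knockdown replicate 2 stood below the other 3 libraries. With 4 libraries, many genes can share such a pattern.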

How the data were processed

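RNA of 4 samples was measured, 2 per group. The deposited table gives the authors' FPKM for each gene and library, a unit inferred here from the values, whose columns sum to 317223 to 322496. The submitters' processing notes name HISAT2 2.1.0 and StringTie 1.3.3, with Trimmomatic 0.36, SAMtools 1.3, bcl2fastq 2.19 and the build mm10, without their order. Per the labels' protocols, cDNA came from the SMART-Seq v4 kit. The sources used here do not give the annotation or strandedness, so reads of overlapping genes can move a value.

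Genes averaging 1 FPKM or more were tested on log2(FPKM + 1), which understates changes of low genes, by limma 3.58.1 (R 4.3.3, trended prior, two-sided). P-values were adjusted by Benjamini-Hochberg over all 10900 genes, with a threshold of 0.05. Sums and shares were compared by exact permutation of samples. FPKM times length fell within 0.1 of a multiple of 1 step per library for 87.0% to 88.1% of the values used, in genes with 1 transcript, and that step (0.162 to 0.182) gave the approximate reads behind a value; no read counts were recovered and no count model was used. Gene models came from GENCODE M21 on GRCm38. Other steps ran in Python 3.11.15. The limma fit was also run on simulated data with equal spread in both groups. Among genes averaging 10 FPKM or more, the median log2 replicate gap was 0.17 in knockdown and 0.11 in control. That run therefore does not test the fit at the unequal spread of these data.

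The members, lists and tests were chosen with earlier results of these data known. The text names the 8 members; per list, the members that passed or else the 2 with the lowest p; and the 5 genes nearest to the troponin sum. The result of 1 gene that this rule names is not reported here. Alternatives were a pseudocount of 0.1, no filter, a filter at 5 FPKM, median-ratio scaling, quantile normalization, no trend, a replicate block and leaving out each library.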

Additional observations from a re-analysis of the deposited data

How the results depend on the processing

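The count of troponin genes called was 0 by limma under each of the 11 alternatives. At an unadjusted p under 0.05 it was 3 without knockdown replicate 1 and 0 or 1 under each of the others. Over the whole table, 6 genes were called, against 0 with no filter on low values (1508 at an unadjusted p under 0.05), 3 with the replicate block, and 5 to 15 with 1 library left out, the 15 being without knockdown replicate 1. The replicate numbers were not treated as pairs. Across 10900 genes, which are not independent replicates, the difference of replicate 1 and 2 in knockdown and in control had a correlation of -0.02. In this balanced design the block must leave the difference of the troponin sum at -0.19, so that value does not test the pairing. The log2 difference of the sum was -0.42 to 0.053 with 1 library left out, -0.22 with median-ratio scaling and -0.16 with quantile normalization. The values that changed sign, given as their range with 1 library left out, were the log2 fold changes of Tnnt3 (-0.53 to 0.17), Tnni1 (-0.39 to 0.19, and 0.06 without control replicate 2), Tnni2 (-0.0072 to 0.086) and Tnnc2 (-0.079 to 0.53), and the log2 differences of the sums of troponin T (-0.40 to 0.050) and troponin I (-0.30 to 0.17, and 0.06 without control replicate 2). The shares that changed sign were those of Tnnt3 (-3.78 to 3.42 points, and 1.87 without control replicate 1), Tnni1 (-4.86 to 1.48 points), Tnni2 (-1.24 to 5.04 points) and troponin in all FPKM (-0.0533 to 0.0115 points). The fast fibre median, an alternative chosen after seeing the data, was -0.28 to 0.052. Each of these ranges runs between the values without one and without the other knockdown library, and knockdown replicate 2 is the one low in Tnnt3 and Tnni1. Tnnt1, Tnnt2 and Tnnc1 kept their direction under every alternative run. For these genes both knockdown libraries lay on the same side of both controls. Leaving out 1 library or changing the pseudocount therefore could not change their sign. The filters, the trend setting and the block leave a log2 fold change as it is. Only median-ratio scaling and quantile normalization could have changed the direction. With 2 samples a group, the median half-width of the 95% interval over all tested genes was 0.48, and smaller changes lie within it.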

Other observations

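The genes beside the troponin pairs were not part of any comparison. Lsp1, an actin-binding gene between Tnni2 and Tnnt3, had 36.4 and 37.7 FPKM in knockdown and 36.8 and 35.2 FPKM in control. Syt8, 1411 bases from Tnni2, had 27.5 and 19.1 FPKM in knockdown and 24.6 and 27.5 FPKM in control. Phlda3, 10297 bases from Tnni1, had 119 and 120 FPKM in knockdown and 132 and 150.2 FPKM in control. Lad1, between Tnni1 and Tnnt2, did not exceed 0.367 FPKM in any library, although the troponin genes on either side of it had at least 79.4 FPKM in each.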
